A study of Mus musculus with 14 samples.

Results

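The genes described here are 44 cell cycle and proliferation genes, chosen by name for their part in DNA replication (S phase, 19 genes) or mitosis (M phase, 25 genes). Of these, 43 were measured, each by 1 probe set among the 21212 on the arrays, and 42 were named by the platform's gene table. Ccnb1 was found through its Entrez gene number, and Pcna, the sliding clamp of the replication fork, had no matched probe set and is not described. Of the measured genes, 18 belong to S phase and 25 to M phase.

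Transcripts were measured in whole dissected lungs of C57BL/6J mice at postnatal day 6, with 100 ng of total RNA on each of 14 Affymetrix mouse Gene ST version 1.0 arrays. The groups were 4 Atxn1L -/- lungs with 4 wild-type lungs, from intercrosses of Atxn1L heterozygotes, and 3 Atxn1-/- lungs with 3 wild-type lungs, from intercrosses of Atxn1 heterozygotes. The genotypes are of the whole animal, not of a single cell type. Capicua, a transcriptional repressor, works in complex with ataxin-1 or its relative ataxin-1-like, and each knockout was set against its own wild types. Levels are the deposited log2 RMA values, and a log2 difference of 0.15 is a level about 1.11-fold higher. The design text speaks of pairs of wild-type and knockout mice without matching arrays to pairs, so the fits are unpaired, and if the arrays are paired their SEs and p-values leave that out. Neither litters nor sexes are in the labels, and p-values rest on the spread between these arrays only.

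Genes of the cell cycle are transcribed in waves. E2F transcription factors switch on the replication genes as a cell passes from G1 into S phase, and a complex of B-Myb, MuvB and FoxM1 switches on the mitotic genes later, largely through promoters that carry a CHR element and CCAAT boxes. In a tissue, the summed transcripts of such genes are widely read as a measure of how many cells are dividing, and the lung is still growing and forming alveoli in the first weeks after birth. In a whole-lung array, more dividing cells and more transcript per dividing cell cannot be told apart.

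The division into S and M phase genes was chosen from known function, and promoters show which sequence features go with it. The 170 bases before the annotated start are shown for 3 S phase and 4 M phase genes, which are genes described below, from RefSeq promoters of mouse build GRCm38.p6. Capitals mark matches to the motifs searched, on either strand: E2F sites (TTTCCCGC, TTTGGCGC, TTTCGCGC or TTTGCCGC), the CHR element (TTTGAA) and the CCAAT box (CCAAT), none of which contains another. Mcm7 is at chr5:138171884-138172053, minus strand, Cdc6 at chr11:98907981-98908150, plus strand, and Mcm2 at chr6:88898781-88898950, minus strand. Cdk1 is at chr10:69352913-69353082, minus strand, Cdc20 at chr4:118437344-118437513, minus strand, Kif11 at chr19:37376212-37376381, plus strand, and Top2a at chr11:99024190-99024359, minus strand.
Mcm7: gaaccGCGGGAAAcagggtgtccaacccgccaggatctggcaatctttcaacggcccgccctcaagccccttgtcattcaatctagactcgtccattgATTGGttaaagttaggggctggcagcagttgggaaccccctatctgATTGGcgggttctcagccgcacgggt
Cdc6: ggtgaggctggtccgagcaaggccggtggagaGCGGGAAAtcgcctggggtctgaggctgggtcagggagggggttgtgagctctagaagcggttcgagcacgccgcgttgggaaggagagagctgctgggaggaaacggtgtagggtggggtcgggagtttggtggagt
Mcm2: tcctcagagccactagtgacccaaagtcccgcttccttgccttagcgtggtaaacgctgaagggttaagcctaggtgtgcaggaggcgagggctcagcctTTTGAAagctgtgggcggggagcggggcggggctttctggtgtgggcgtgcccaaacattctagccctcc
Cdk1: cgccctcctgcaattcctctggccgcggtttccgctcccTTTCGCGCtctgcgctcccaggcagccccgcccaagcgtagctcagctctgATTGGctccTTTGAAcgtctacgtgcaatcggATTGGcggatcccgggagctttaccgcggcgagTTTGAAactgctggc
Cdc20: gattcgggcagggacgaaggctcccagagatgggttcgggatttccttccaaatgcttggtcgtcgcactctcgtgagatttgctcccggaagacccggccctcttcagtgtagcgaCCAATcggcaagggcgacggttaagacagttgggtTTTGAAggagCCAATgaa
Kif11: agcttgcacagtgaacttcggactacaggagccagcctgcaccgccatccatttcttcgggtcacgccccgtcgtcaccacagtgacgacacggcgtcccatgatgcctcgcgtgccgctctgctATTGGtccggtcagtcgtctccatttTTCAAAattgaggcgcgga
Top2a: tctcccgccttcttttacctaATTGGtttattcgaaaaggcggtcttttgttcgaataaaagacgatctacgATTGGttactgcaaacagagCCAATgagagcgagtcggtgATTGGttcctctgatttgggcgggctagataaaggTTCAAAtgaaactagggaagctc

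In these windows Mcm7 and Cdc6 each hold an E2F match, on the minus strand of the gene, 165 and 138 bases before the start. Mcm2 holds no E2F match and a CHR match 70 bases before the start. Cdk1 holds an E2F match 131 bases before the start, 2 CHR matches at 71 and 15 bases, and CCAAT boxes in inverted orientation beside them. Cdc20, Kif11 and Top2a each hold a CHR match within 23 bases of the start, with a CCAAT box upstream of it. The genes shown are a selection, and other genes described below lack these features. Over the same 170 bases, Bub1b and Cenpe of M phase hold a CCAAT box without a CHR match. Mybl2 and Tyms of S phase hold no match there.

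Over the full promoter window of 300 bases (250 before the start and 50 after it), 34 measured members had an entry, 15 of S phase and 19 of M phase. The CHR letters were found in 14 of the 19 M phase promoters (73.7%) and in 2 of the 15 S phase promoters (13.3%), against 18.1% of the 27025 genes with a promoter in the table. A CCAAT box was found in 17 of the 19 M phase promoters (89.5%) and in 8 of the 15 S phase promoters (53.3%), against 37.9% of all. The E2F letters were found in 5 of the 15 S phase promoters (33.3%: Mcm3, Mcm5, Mcm6, Mcm7 and Cdc6) and in 1 of the 19 M phase promoters (5.26%, Cdk1), against 2.32% of all. The letters bound by Capicua (TGAATGAA or TGAATGGA) were in none of the 34, and in 2.46% of all. A match describes the letters in this window and is not evidence that a factor binds there.

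**Figure D1:**
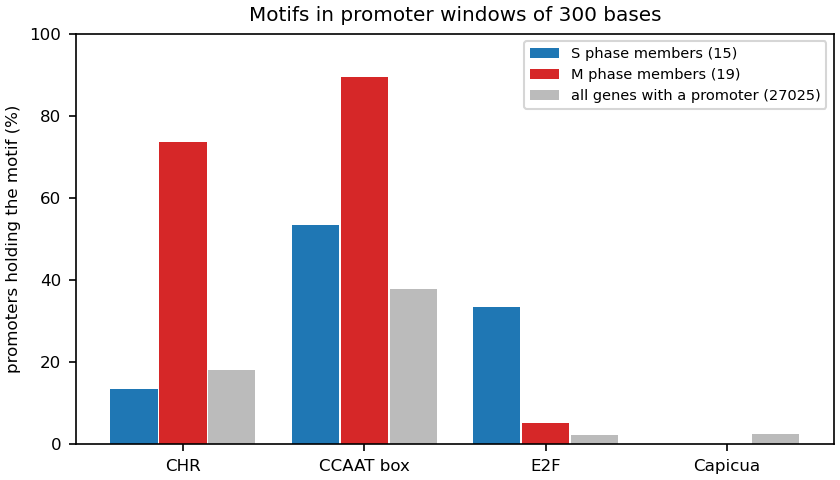
Share of promoter windows of 300 bases that hold each motif on either strand (bars, percent), for the 15 S phase members, the 19 M phase members and all 27025 genes with a promoter in the RefSeq table. The CHR and CCAAT bars are highest for M phase genes (73.7% and 89.5%), and the E2F bar is highest for S phase genes (33.3%).

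The arrays of each set were normalized together and apart from the other set, so levels are read within a set. Median log2 levels over all probe sets were 8.44 to 8.53 among Atxn1L -/- lungs and their wild types and 9.21 to 9.24 among Atxn1-/- lungs and theirs. Atxn1l itself was at 6.68 to 7.05 on the 4 Atxn1L -/- arrays, against 9.29 to 9.59 on their wild types (log2 difference -2.58, SE 0.09, limma adjusted p = 1.18e-06). Atxn1 was at 10.99 to 11.04 on the Atxn1-/- arrays, against 10.92 to 11.14 on their wild types, and since the sources used here do not give the deleted stretch, its probe set is no check of that genotype. Xist, the RNA that silences an X chromosome in female cells, was low on Atxn1L -/- replicate 1 and on wild-type replicates 1 and 2 of that set, and on Atxn1-/- replicate 1 and wild-type replicates 1 and 2 of the other. It was at 6.32 to 7.04 on these arrays of the Atxn1L set, against 13.09 to 13.29 on the rest. In the Atxn1 set it was at 6.83 to 6.94, against 12.97 to 13.07. Low-Xist arrays were thus not balanced between knockouts and wild types in either set. Medians of the markers of alveolar type 2, alveolar type 1, endothelial, and fibroblast and smooth muscle cells differed by -0.04 to -0.02 between Atxn1L -/- and wild-type lungs and by 0.02 to 0.05 between Atxn1-/- and wild-type lungs. Though small, the alveolar type 1 difference came without overlap in the Atxn1 set. Its list mean was 12.53 to 12.54 on knockouts and 12.47 to 12.48 on wild types (difference 0.055, SE 0.005). By limma, 0 of its 5 genes passed the adjusted threshold.

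In lungs without ataxin-1-like, nearly all of the cell cycle genes had slightly higher mean levels than in wild-type lungs, and no gene passed the adjusted threshold. By limma, 0 of the 43 members passed an adjusted p of 0.05, where 0.0424% of all probe sets did, and 8 members were higher at an unadjusted p under 0.05, where 4.54% of all probe sets were, with 0 lower (3.95% of all). The mean was higher in 42 of 43 members, against 51.3% of all probe sets, with a median log2 difference of 0.15, against 0.00 over all probe sets. The S phase genes (17 of 18 above 0) and the M phase genes (25 of 25 above 0) had the same median, 0.15. Members share arrays and move together, so these counts are not independent pieces of evidence.

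Averaged over the 18 S phase genes, the log2 level was 9.69, 9.38, 9.53 and 9.52 on the Atxn1L -/- arrays, replicates 1 to 4, against 9.23, 9.32, 9.48 and 9.50 on the wild types. Knockout replicate 1 was the highest and wild-type replicate 1 the lowest of the 8, and the other 6 arrays of the groups overlapped. The group means were 9.53 ± 0.13 in Atxn1L -/- lungs and 9.38 ± 0.13 in wild-type lungs (SD, n = 4 each), a difference of 0.15 with an SE of 0.09.

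Averaged over the 25 M phase genes, the level was 10.16, 9.60, 9.90 and 9.83 on the Atxn1L -/- arrays, against 9.74, 9.54, 9.78 and 9.82 on the wild types. Here knockout replicate 1 was again the highest, wild-type replicate 2 was the lowest, and knockout replicate 2 lay below 3 of the 4 wild types. The group means were 9.87 ± 0.23 in Atxn1L -/- lungs and 9.72 ± 0.12 in wild-type lungs (SD, n = 4 each), a difference of 0.15 with an SE of 0.13.

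**Figure D2:**
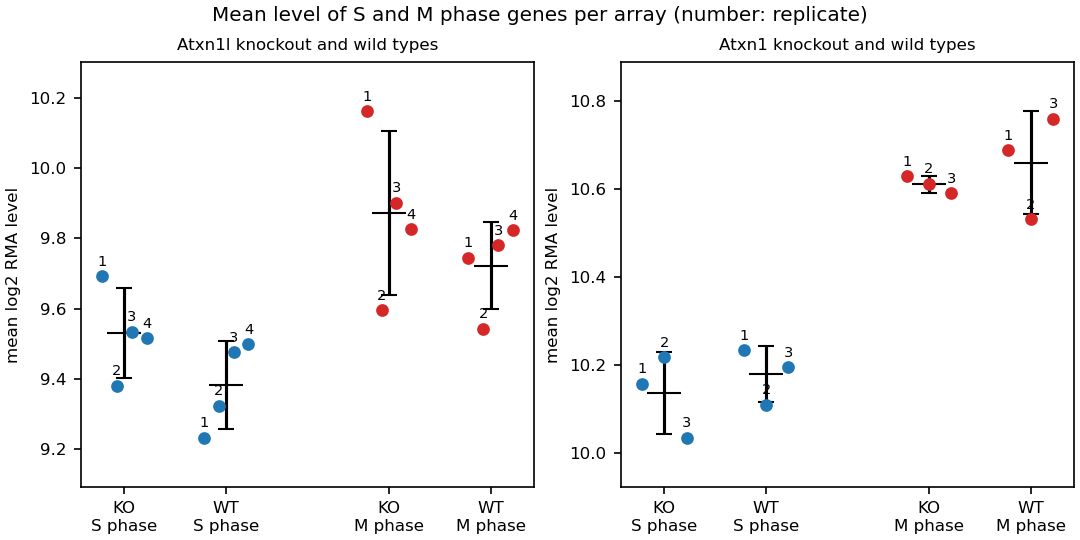
Mean log2 RMA level of the 18 S phase genes (blue) and the 25 M phase genes (red) on each array, numbered by replicate, with group mean and SD in black (knockout, KO, left of wild type, WT). In the Atxn1l panel KO replicate 1 stands highest in both lists (9.69 and 10.16), and in the Atxn1 panel the KO and WT points overlap in both. The panels have separate scales because the sets were normalized apart.

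The spread within groups was wide for these genes. The median within-group SD of a member was 0.18, against 0.09 over all probe sets of this set, and it was 0.13 for S phase and 0.20 for M phase genes. Knockout replicate 1 had the highest level of the 8 arrays in 41 of 43 members, where it was the highest for 20.2% of all probe sets, and it exceeded the mean of the other 3 knockouts by 0.22 in the S phase mean and by 0.39 in the M phase mean. The lowest array depended on the phase. Wild-type replicate 1 was lowest in 12 of 18 S phase genes and 1 of 25 M phase genes (14.3% of all probe sets), whereas wild-type replicate 2 was lowest in 5 of 18 S phase genes and 17 of 25 M phase genes (12.8% of all). Knockout replicate 2 was the lowest array for 1 S phase and 7 M phase genes (11.9% of all).

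The size of the difference rested on a few arrays. Without knockout replicate 1 the median difference was 0.10 for S phase and 0.06 for M phase genes, with 34 of 43 members above 0 (51.0% of all probe sets in that fit). By phase, 17 of 18 S phase genes and 17 of 25 M phase genes were then above 0. Without wild-type replicate 1 the S phase median was 0.10, and without wild-type replicate 2 the M phase median was 0.09. Without knockout replicate 2, by contrast, the medians were 0.20 and 0.24, with 43 of 43 above 0 (47.7% of all probe sets in that fit) and 22 members higher at an unadjusted p under 0.05 (4.62% of all). Leaving out knockout replicate 1 gave 4 such members (3.62% of all probe sets) and knockout replicate 3 gave 5 (also 3.62%). Leaving out wild-type replicate 1 gave 3 (4.47%), as did wild-type replicate 2 (4.23%), and wild-type replicate 4 gave 12 (3.64%). Knockout replicate 1 is also the knockout with low Xist, so leaving it out removes that difference between the knockouts too. Wild-type replicates 1 and 2 are likewise the wild types with low Xist. No member passed the adjusted threshold, whichever of the 8 arrays was left out.

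**Figure D3:**
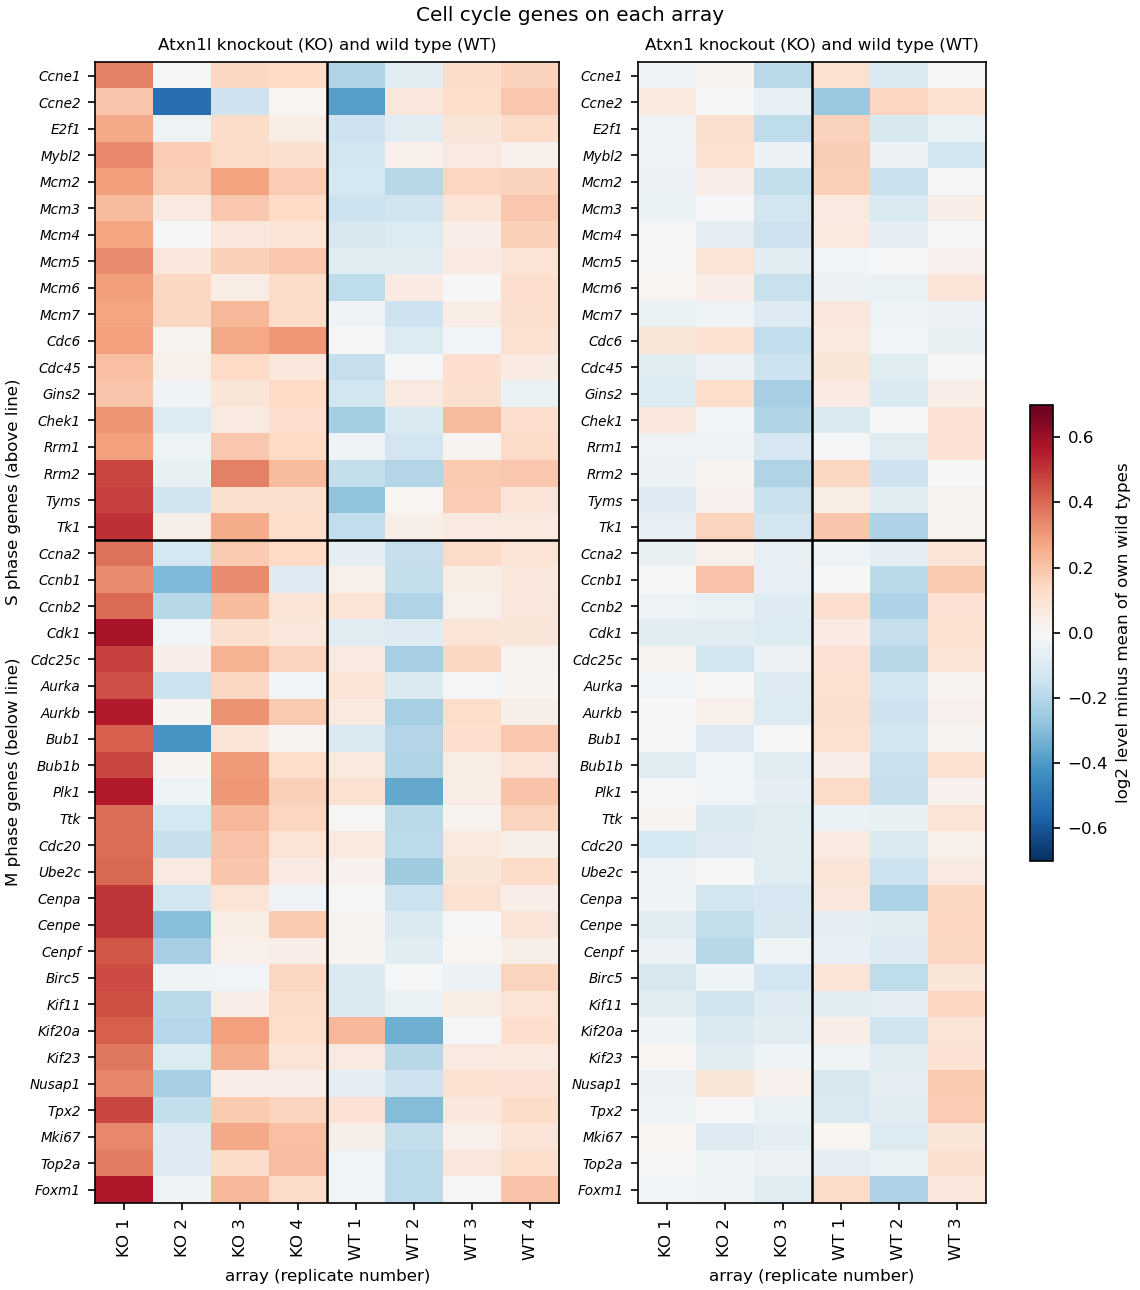
Log2 level of each of the 43 genes on each array minus the mean of its own wild types (color scale from -0.7 to 0.7), S phase genes above the black line and M phase genes below it, knockout arrays left of wild types. In the Atxn1l panel the column of KO 1 is the highest in 41 genes, and WT 2 is lowest in 17 of the 25 M phase genes.

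Differences among the S phase genes ran across their roles. All 6 genes of the MCM ring, which unwinds DNA at the fork, had higher means in Atxn1L -/- lungs, by 0.11 (Mcm4) to 0.23 (Mcm2). Mcm2 was at 10.01, 9.88, 9.99 and 9.89 in Atxn1L -/- lungs, against 9.59, 9.52, 9.87 and 9.88 in wild-type lungs. All 4 knockout arrays lay above all 4 wild types, the closest by less than 0.01, and the difference of 0.23 (SE 0.09) had a limma adjusted p of 0.516. Mcm7, whose promoter holds the E2F letters shown above, was at 9.94, 9.81, 9.89 and 9.79, against 9.64, 9.52, 9.72 and 9.77 in wild-type lungs. Its groups did not overlap either, with a difference of 0.20 (SE 0.06, adjusted p = 0.463).

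Among the regulators of the G1 to S transition, Mybl2, which encodes B-Myb, was the third gene without overlap between groups. It was at 9.46, 9.30, 9.25 and 9.23 in Atxn1L -/- lungs, against 8.99, 9.15, 9.18 and 9.15 in wild-type lungs, a difference of 0.19 (SE 0.07, adjusted p = 0.479). These 3 of 43 genes compare with 2.76% of all probe sets whose 4 knockout arrays lay above all wild types. The other regulators were E2f1, a transcription factor of the S phase genes (0.10), Ccne1, the cyclin E1 partner of Cdk2 (0.16), and Ccne2, cyclin E2, the only member with a lower mean (-0.12, SE 0.16).

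Cdc6, which loads the MCM ring onto replication origins, was at 8.16, 7.90, 8.15 and 8.18 in Atxn1L -/- lungs, against 7.89, 7.78, 7.86 and 7.99 in wild-type lungs. Knockout replicate 2 lay among the wild types and the other 3 lay above them, and the difference was 0.22 (SE 0.07, adjusted p = 0.463). The remaining fork and checkpoint genes were Cdc45 (0.12) and Gins2 (0.10), both part of the active helicase, and Chek1, the checkpoint kinase of stalled replication (0.10). Enzymes that supply deoxynucleotides differed by 0.14 for both Rrm1, the large subunit of ribonucleotide reductase, and Tyms, thymidylate synthase. Tk1, thymidine kinase, and Rrm2, the small reductase subunit, differed by 0.23 and 0.25. Together with the genes described, Mcm5 (0.19) and Tk1 complete the 6 S phase genes at an unadjusted p under 0.05, which are Mcm2, Mcm5, Mcm7, Mybl2, Cdc6 and Tk1.

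Mitotic genes differed by similar amounts with more spread. Aurkb, the kinase of the chromosomal passenger complex, had the largest difference of all members: it was at 10.85, 10.31, 10.60 and 10.47 in Atxn1L -/- lungs, against 10.36, 10.06, 10.41 and 10.33 in wild-type lungs. The groups overlapped through knockout replicate 2, and the difference of 0.27 (SE 0.11) had an adjusted p of 0.572. Among the other mitotic kinases, the means differed by 0.25 for Plk1, which acts from mitotic entry to cytokinesis, 0.16 for Ttk, a kinase of the spindle checkpoint, and 0.11 for Aurka, the kinase of spindle poles.

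The checkpoint genes Bub1 and Bub1b lay at different ends of the range. Bub1b, encoding BubR1 of the mitotic checkpoint complex, was at 9.65, 9.20, 9.48 and 9.30 in Atxn1L -/- lungs, against 9.25, 8.97, 9.23 and 9.27 in wild-type lungs. Knockout replicate 2 lay within the wild-type range, and the difference was 0.23 (SE 0.10, adjusted p = 0.589). Bub1 differed by 0.03 (SE 0.16), with knockout replicate 2, at 9.50, the lowest of the 8 arrays and knockout replicate 1, at 10.33, the highest.

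Cdk1, the kinase that drives entry into mitosis, was at 11.09, 10.49, 10.62 and 10.59 in Atxn1L -/- lungs, against 10.43, 10.42, 10.60 and 10.59 in wild-type lungs. Apart from knockout replicate 1 the 7 arrays lay between 10.42 and 10.62, and the difference of 0.19 (SE 0.12, adjusted p = 0.721) was 0.06 without that array. Cdc25c, the phosphatase that activates Cdk1, was at 7.84, 7.41, 7.61 and 7.51, against 7.42, 7.13, 7.51 and 7.39 in wild-type lungs, with overlapping groups and a difference of 0.23 (SE 0.10, adjusted p = 0.586). The mitotic cyclins Ccna2, Ccnb1 and Ccnb2 differed by 0.14, 0.06 and 0.13.

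Mki67, which encodes the Ki-67 proliferation marker coating mitotic chromosomes, was at 11.70, 11.28, 11.63 and 11.57 in Atxn1L -/- lungs, against 11.40, 11.20, 11.40 and 11.46 in wild-type lungs. Knockout replicates 1, 3 and 4 lay above all wild types and replicate 2 lay among them, with a difference of 0.18 (SE 0.09, adjusted p = 0.645). Top2a, the topoisomerase that untangles sister chromatids, was at 10.93, 10.48, 10.70 and 10.79, against 10.55, 10.39, 10.66 and 10.70 in wild-type lungs, a difference of 0.15 (SE 0.10, adjusted p = 0.736). Foxm1, the transcription factor of mitotic genes, differed by 0.22.

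The remaining mitotic members had means 0.05 to 0.18 higher in Atxn1L -/- lungs. Of the anaphase-promoting complex, Ube2c, its ubiquitin-conjugating enzyme, differed by 0.18 and Cdc20, its activator, by 0.13. Birc5, the passenger protein survivin, differed by 0.14, Cenpa, the centromeric histone, and Cenpe, a kinetochore motor, by 0.11, and Cenpf by 0.07. Among spindle genes, Tpx2, which activates Aurora A on microtubules, and Kif20a differed by 0.16, Kif23 of the central spindle by 0.15, Kif11, the motor that pushes spindle poles apart, by 0.11, and Nusap1 by 0.05. Without knockout replicate 1 the mean of Cenpe was 0.02 lower and that of Kif11 less than 0.01 lower than in wild types.

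**Figure D4:**
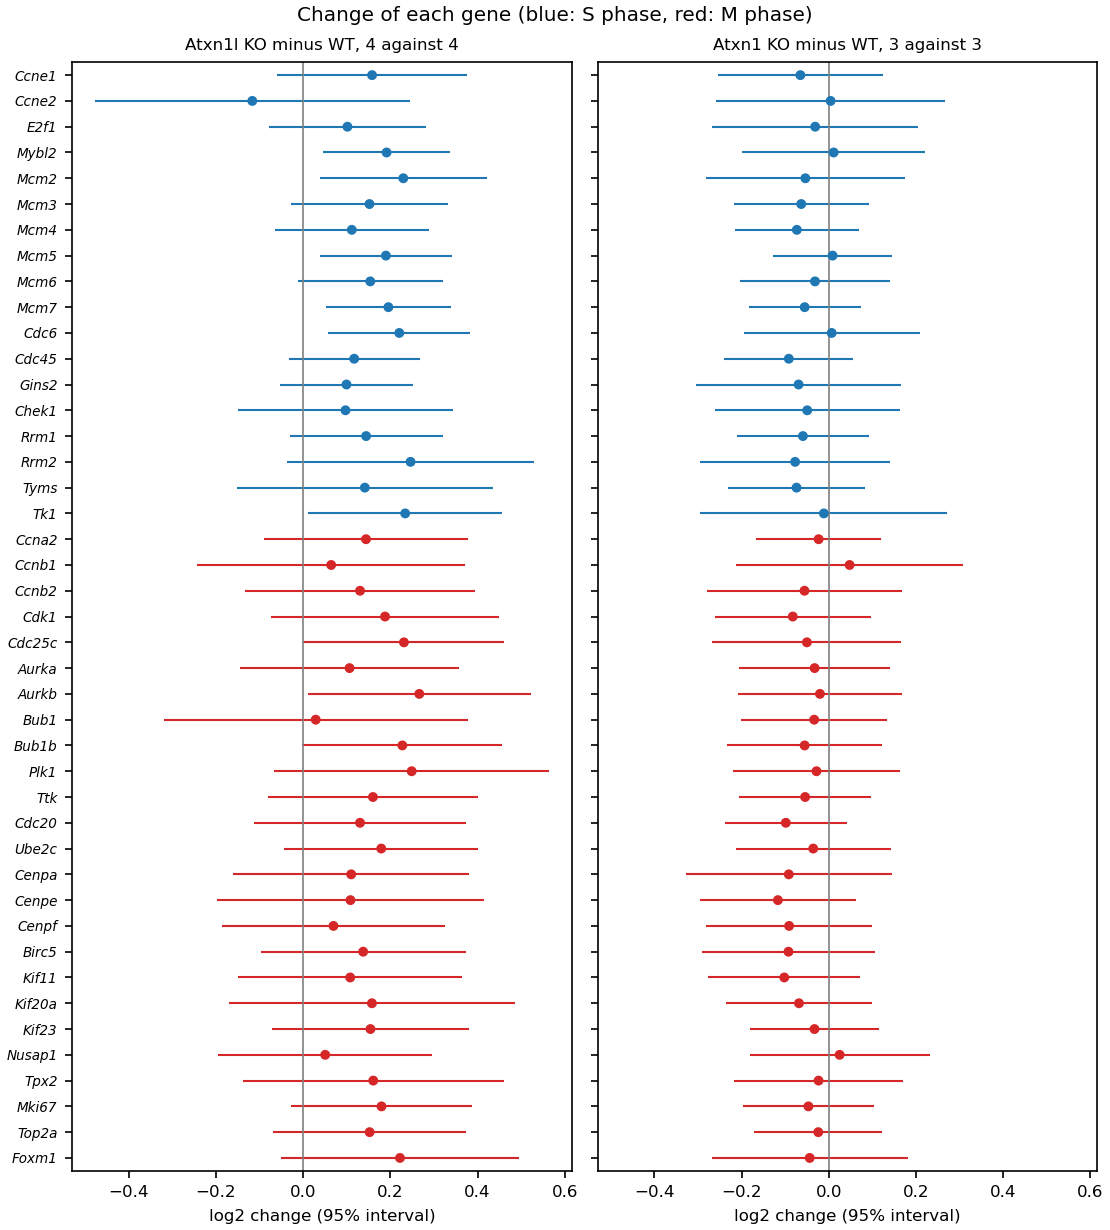
Log2 difference, knockout minus wild type, of each of the 43 genes with its 95% interval from limma (horizontal line), S phase genes in blue and M phase genes in red, for Atxn1l (4 against 4 arrays) and Atxn1 (3 against 3). Points lie from -0.12 to 0.27 on the left and from -0.12 to 0.05 on the right, and most intervals cross 0 on the left and all do on the right.

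Neutrophil and macrophage genes were also higher on the array with the highest cell cycle levels. The mean of 10 neutrophil genes was 9.59, 8.63, 8.50 and 8.34 in Atxn1L -/- lungs, replicates 1 to 4, against 8.28, 8.45, 7.99 and 7.87 in wild-type lungs, with 10 of 10 means higher (51.3% of all probe sets). By limma, 4 of the 10 were higher at an unadjusted p under 0.05 (4.54% of all) and none passed the adjusted threshold. The mean of 9 macrophage genes was 9.73, 9.14, 9.18 and 9.23, against 8.72, 8.73, 8.63 and 8.64 in wild-type lungs, so that all knockouts lay above all wild types. Both lists were chosen with earlier results of these data known, so their counts are not independent evidence. In the macrophage list 9 of 9 means were higher. By limma, 2 of its genes, Chil3 (log2 difference 1.46, adjusted p = 0.0210) and Msr1 (0.69, adjusted p = 0.0197), passed the threshold (0.0424% of all probe sets). Neither passed without knockout replicate 4 or without wild-type replicate 1, 2 or 3 (adjusted p = 0.0552 to 0.113), and Msr1 did not without knockout replicate 3 (adjusted p = 0.0649), while the differences stayed at 1.42 to 1.52 for Chil3 and 0.64 to 0.71 for Msr1 in these fits. Knockout replicate 1 was thus the highest array for the neutrophil and macrophage lists and for both cell cycle lists. The list of 6 lymphocyte genes went the other way among the knockouts, at 8.30 on that array and 8.45 to 8.64 on the others. Its wild types lay at 8.23 to 8.54. Knockout replicate 1 was the lowest array for the list of fibroblast and smooth muscle genes, at 11.23, against 11.34 to 11.57 on the other 7 arrays. Median differences were -0.05 for 6 erythroid, 0.05 for 6 lymphocyte and 0.12 for 3 ciliated cell genes.

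On replicate 2 of both groups the lists did not run in parallel. Wild-type replicate 2 had the lowest M phase mean of the set and the highest neutrophil mean of the wild types, and knockout replicate 2 had an M phase mean of 9.60, below 3 wild types, with a macrophage mean of 9.14, above all wild types. The part of these cells in the cell cycle levels was not tested. With the Xist level as a covariate, the median difference was 0.14 for S phase and 0.16 for M phase genes. This covariate enters both groups alike, so it cannot show a difference confined to low-Xist arrays. On those, S and M phase means were 9.69 and 10.16 (knockout replicate 1), 9.23 and 9.74, and 9.32 and 9.54 (wild-type replicates 1 and 2). On the high-Xist arrays, S phase means were 9.38, 9.53 and 9.52 in knockouts, against 9.48 and 9.50 in wild types. M phase means were 9.60, 9.90 and 9.83, against 9.78 and 9.82, so these arrays overlapped. This split was not tested.

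**Figure D5:**
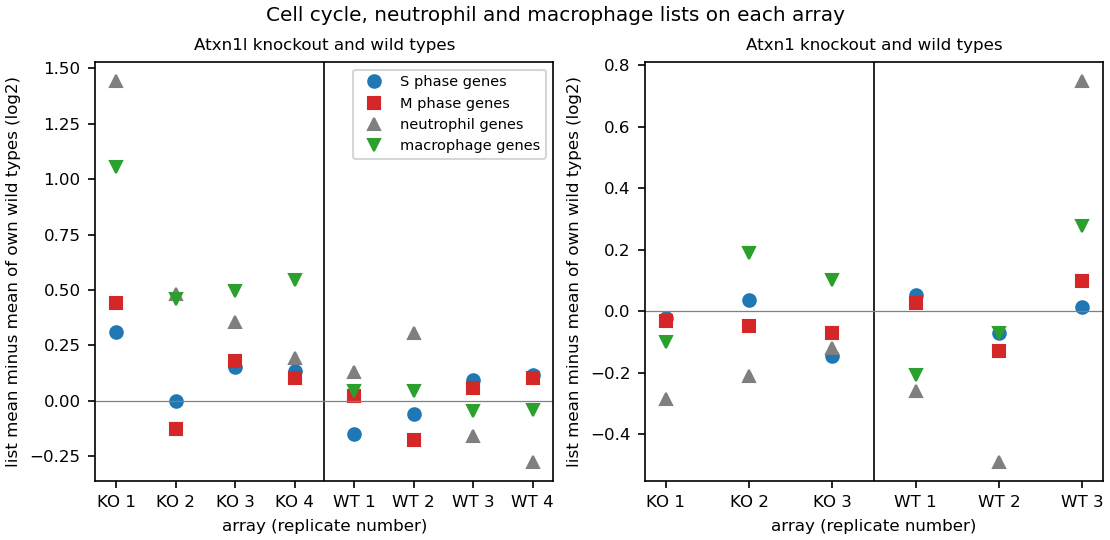
Mean of the S phase, M phase, neutrophil (10 genes) and macrophage (9 genes) lists on each array, minus the mean of the list over its own wild types (log2), with knockout arrays left of the vertical line. In the Atxn1l panel all 4 symbols are highest on KO 1, and in the Atxn1 panel the neutrophil symbol is highest on WT 3.

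A wider list of 79 measured cell cycle genes, of 81 listed by role, differed less. The mean was higher in Atxn1L -/- lungs in 58 of 79 genes (51.3% of all probe sets), with a median of 0.06, and 0 passed the adjusted threshold by limma. At an unadjusted p under 0.05, 10 were higher (4.54% of all probe sets) and 2 lower (3.95% of all). Among them were 11 genes of cytokinesis and other mitotic proteins, with 11 of 11 means higher and a median of 0.15, as in the M phase members. The median was 0.05 for 6 G1 cyclins and their kinases, 0.03 for 6 inhibitors of these kinases, 0.04 for 13 genes of the Rb, E2F and MuvB families, 0.06 for 15 replisome genes and 0.06 for 9 origin licensing genes. It was 0.05 for 7 kinetochore and checkpoint genes, 0.09 for 7 genes of condensin and cohesion, and 0.07 for 5 regulators of Cdk1 and mitotic exit. Without knockout replicate 1, the means of 39 of the 79 genes were higher, with a median of 0.00.

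Within this wider list, all 4 knockouts lay above all wild types in 5 of 79 genes (2.76% of all probe sets). The smallest limma p belonged to Orc3 and Cdkn1a. Cdkn1a, which encodes the kinase inhibitor p21, was at 10.81, 10.60, 10.54 and 10.52 in Atxn1L -/- lungs, against 10.24, 10.23, 10.31 and 10.46 in wild-type lungs. Its groups did not overlap, and the difference of 0.31 (SE 0.08) had an adjusted p of 0.332. Orc3, a subunit of the origin recognition complex, was at 10.74, 10.71, 10.73 and 10.78, against 10.86, 10.93, 10.91 and 10.97 in wild-type lungs. Orc3 was thus lower on all 4 knockout arrays (difference -0.18, SE 0.05, adjusted p = 0.331), as was Orc5 of the same complex (-0.17, SE 0.05, adjusted p = 0.408). These were the 2 of 79 genes with all 4 knockouts below all wild types, a share near the 2.56% of all probe sets. Ccnd1, cyclin D1, had the opposite sign, with a difference of 0.14 (SE 0.05, adjusted p = 0.527) and no overlap. The replisome genes Lig1, the DNA ligase of the lagging strand, and Pole, the catalytic subunit of polymerase epsilon, had means higher by 0.15 and 0.29.

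In lungs without ataxin-1 the cell cycle genes were near their wild-type levels. By limma, 0 of the 43 members passed the adjusted threshold and 0 reached an unadjusted p of 0.05, where 0.0% of all probe sets passed the first and 0.75% were higher and 0.467% lower by the second. Means were lower in 37 of 43 members, against 52.7% of all probe sets, with a median log2 difference of -0.05 for S phase genes (14 of 18 lower) and -0.05 for M phase genes (23 of 25 lower). Differences lay between -0.12 (Cenpe) and 0.05 (Ccnb1), no member had groups without overlap (2.85% of all probe sets had all knockouts above and 1.9% all below), and the 95% intervals of all 43 lay within -0.33 to 0.31.

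The mean of the S phase genes was 10.16, 10.22 and 10.03 on the Atxn1-/- arrays, against 10.23, 10.11 and 10.19 on the wild types. Knockout replicate 3 was the lowest array, and the groups overlapped (difference -0.04, SE 0.06). The mean of the M phase genes was 10.63, 10.61 and 10.59 on the Atxn1-/- arrays, against 10.69, 10.53 and 10.76 on the wild types. All 3 knockouts lay between wild-type replicates 2 and 1 (difference -0.05, SE 0.07), and neither difference exceeded its SE.

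As in the other set, the lowest array was not the same for the phases. Knockout replicate 3 was lowest in 15 of 18 S phase genes and 0 of 25 M phase genes (12.4% of all probe sets), and wild-type replicate 2 was lowest in 1 of 18 S phase genes and 16 of 25 M phase genes (26.2% of all). Wild-type replicate 1 was the highest array in 21 of 43 members, and it was the highest for 41.0% and the lowest for 23.2% of all probe sets. Wild-type replicate 3 was highest in 14 of 25 M phase genes (12.0% of all), and it also had the highest neutrophil mean, 10.09, against 9.05 to 9.22 on the Atxn1-/- arrays and 8.85 and 9.08 on the other wild types. The highest macrophage mean, 9.85, was on that array too. Wild-type replicate 2 had both the lowest M phase mean, 10.53, and the lowest neutrophil mean, 8.85. Median differences of the marker lists were -0.19 for neutrophil, 0.04 for macrophage, 0.25 for erythroid, 0.09 for lymphocyte and -0.07 for ciliated cell genes, and their part in the cell cycle levels was not tested. The erythroid mean was 9.49, 9.70 and 9.71 on the Atxn1-/- arrays, against 9.47, 9.44 and 9.27 on the wild types, without overlap. All knockouts lay above all wild types in 3 of its 6 genes (2.85% of all probe sets). By limma, 3 of 6 were higher at an unadjusted p under 0.05 (0.75% of all) and 0 passed the adjusted threshold. Without knockout replicate 3 the S phase median was 0.01, and without wild-type replicate 3 the M phase median was -0.01. Leaving out knockout replicate 2 gave an S phase median of -0.08, and leaving out wild-type replicate 1 gave -0.02. Without wild-type replicate 2 the medians were -0.10 and -0.11, with 6 M phase genes lower at an unadjusted p under 0.05 and none past the adjusted threshold, in a fit where 2.64% of all probe sets were lower at that p. With array weights, 3 S phase and 17 M phase genes were lower at an unadjusted p under 0.05, where 8.24% of all probe sets were, and none passed the adjusted threshold.

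Cdc45 had the smallest p of the S phase genes in this comparison, at 9.61, 9.66 and 9.55 in Atxn1-/- lungs, against 9.78, 9.61 and 9.70 in wild-type lungs. The groups overlapped, with a difference of -0.09 (SE 0.06, adjusted p = 1.00). Mcm4 was at 10.69, 10.64 and 10.55, against 10.77, 10.64 and 10.69 in wild-type lungs (difference -0.07, SE 0.06). In neither gene did the groups separate, nor did they in Tyms, at 10.37, 10.49 and 10.30 in Atxn1-/- lungs, against 10.51, 10.39 and 10.48 in wild-type lungs (difference -0.07, SE 0.07). Mcm2 was at 10.94, 11.03 and 10.81, against 11.15, 10.82 and 10.97 in wild-type lungs, with overlapping groups. Mcm2 (-0.05, SE 0.10) and Mcm7 (-0.06, SE 0.05) differed by about 1 SE or less, and Mybl2 and Cdc6 had means 0.01 higher in Atxn1-/- lungs.

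Of the M phase genes, Cdc20 was at 10.22, 10.25 and 10.26 in Atxn1-/- lungs, against 10.41, 10.24 and 10.38 in wild-type lungs. The groups overlapped through wild-type replicate 2, with a difference of -0.10 (SE 0.06, adjusted p = 1.00). Cenpe was at 9.68, 9.59 and 9.65, against 9.68, 9.67 and 9.91 in wild-type lungs, and Kif11 was at 10.86, 10.79 and 10.84, against 10.85, 10.86 and 11.08. In both genes the difference (-0.12, SE 0.08, and -0.10, SE 0.07) came with 1 high array, wild-type replicate 3. Cdk1 was at 11.86, 11.87 and 11.85 in Atxn1-/- lungs, between the wild-type values of 12.00, 11.78 and 12.05 (difference -0.08, SE 0.08). Mki67 was at 12.12, 12.02 and 12.05, against 12.12, 12.02 and 12.19 in wild-type lungs (difference -0.05, SE 0.06). Top2a was at 11.31, 11.28 and 11.27, against 11.25, 11.27 and 11.42 in wild-type lungs (difference -0.02, SE 0.06). In these 3 proliferation genes the groups overlapped and the difference was about 1 SE or less. Of the 79 wider cell cycle genes, 25 had higher means in Atxn1-/- lungs (47.3% of all probe sets), with a median of -0.02, and 0 passed an adjusted or unadjusted p of 0.05 by limma.

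Whether the knockouts differed from each other was tested as the contrast of both effects in 1 fit of the 14 arrays. By limma, 0 of 43 members passed the adjusted threshold, where 0.00943% of all probe sets did. The Atxn1L -/- effect was the larger in 42 of 43 members, against 53.5% of all probe sets, with a median of 0.21 for all members. The M phase median was 0.21, and it was 0.12 without Atxn1L -/- replicate 1. Only Mcm7 (0.25, SE 0.09, adjusted p = 1.00) and Cdc45 (0.21, SE 0.10, adjusted p = 1.00) reached an unadjusted p of 0.05, where 1.74% of all probe sets were higher. In 37 members the mean was higher in Atxn1L -/- lungs and lower in Atxn1-/- lungs than in their wild types, a combination seen in 26.9% of all probe sets, and in no member did the difference between the knockouts pass the adjusted threshold.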

How the data were processed

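The deposited values are log2 RMA levels, which the authors made, per the labels, separately for the 8 arrays of the Atxn1L set and the 6 arrays of the Atxn1 set. The submitters' processing notes name RMA and limma. Neither the probe set definition's version nor the genome build is given in the sources used here. Lungs were frozen in liquid nitrogen and RNA was extracted with Trizol, per the labels.

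Of 21212 probe sets, each numbered by an Entrez gene, 18786 had 1 symbol in the platform table, 6 had several, 1917 were named by Entrez number in RefSeq and 503 stayed unnamed. Changes were fitted for all probe sets in R 4.3.3 with limma 3.58.1 (default eBayes prior, two-sided, Benjamini-Hochberg over all probe sets, threshold 0.05), as knockout minus wild type within each set and as the contrast of both effects over 14 arrays. Intervals are limma's 95% intervals. The SE of a list mean comes from the spread of that mean between arrays. Member and marker lists were described by counts and medians, without a test. Tables were made with Python 3.11.15, pandas 2.3.3 and numpy 2.4.6. The fit was tested on simulated data.

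Members and lists were chosen with earlier results of these data known. Genes shown on every array of a comparison were Mki67, Top2a, Cdk1 and Mcm2 as proliferation markers, the 3 members of smallest p of each phase in that comparison, and members whose groups did not overlap. From the wider cell cycle and marker lists, at most 2 genes of smallest p of each list and those past the threshold were named. Of 57 cell marker genes, 55 were matched. The number of arrays limits the precision. Alternatives were a replicate block, median centring, joint quantile normalization, array weights, a trended robust eBayes prior, leaving out dim probe sets, an Xist covariate, another threshold, lists without some genes, and leaving out each array.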

Additional observations from a re-analysis of the deposited data

Results flagged for a closer look

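In the groups of 4 arrays, 8 of 90 sets of values held an array far from the other 3 by Dixon's test, which chance does in about 1 of 20 groups. All were low values. Only the Atxn1L set has groups of 4, so only its arrays were tested. Among Atxn1L -/- lungs, Cdc6 was at 7.90 on replicate 2, against 8.15 to 8.18 on the other knockouts. On wild-type replicate 1, Mybl2 was at 8.99 (9.15 to 9.18 on the other wild types) and Tk1 at 8.77 (8.98 to 9.01). On wild-type replicate 2, 5 mitotic genes stood apart: Ccnb1 at 9.19 (9.39 to 9.43), Bub1b at 8.97 (9.23 to 9.27), Cdc20 at 9.10 (9.32 to 9.35), Kif23 at 10.06 (10.31 to 10.32) and Tpx2 at 9.05 (9.43 to 9.48). The 5 genes share that array, so they are not independent of each other. Knockout replicate 1, the highest array in 41 of 43 members, was not singled out by this test in any gene.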

How the results depend on the processing

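No member passed the adjusted threshold in any comparison under any alternative, 0.10 included. With the replicate number as a block (replicate block), 0 members passed in each comparison, and 2 of all probe sets passed in the Atxn1L set, against 9 without it. Under the block 14 members were higher at an unadjusted p under 0.05 in the Atxn1L set, against 8 without it, and 8 in the contrast, against 2 (5.54% and 2.15% of all probe sets under the block). Chil3 kept its call under the block (adjusted p = 0.0482) and Msr1 lost it (0.0880). Deviations of same-numbered arrays correlated at 0.09, 0.04, 0.23 and 0.38 among the Atxn1L arrays and at 0.00, -0.42 and 0.42 among the Atxn1 arrays. Those of a knockout and a wild type of different number correlated at -0.24 to 0.25 and at -0.37 to 0.37. The design text does not tie the numbers to its pairs, so they were not used as pairs. Over all settings, 2 to 25 probe sets passed for Atxn1L -/- and 0 to 1 for Atxn1-/-. Leaving out each array in turn gave median differences of 0.10 to 0.20 (S phase) and 0.06 to 0.24 (M phase) for Atxn1L -/-, -0.10 to 0.01 and -0.11 to -0.01 for Atxn1-/-, and 0.15 to 0.24 and 0.12 to 0.29 for the contrast. The M phase mean level difference of the Atxn1 set was -0.13 with array weights, against -0.05, and the cause was not tested. Signs of single genes turned when 1 array was left out, and the cause was not tested. In the Atxn1 set the ranges were -0.094 to 0.037 for Aurkb, -0.044 to 0.096 for Cdc6, -0.132 to 0.031 for Mcm2, -0.054 to 0.096 for Mybl2 and -0.056 to 0.032 for Top2a. In the Atxn1L set they were -0.022 to 0.244 for Cenpe and -0.0050 to 0.21 for Kif11. Joint quantile normalization gave -0.0049 for Mybl2 in the Atxn1 set, against 0.01. The list without Ccnb1 was chosen after seeing the data and moved the M phase contrast median by less than 0.01.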

Other observations

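The balance of mitotic over replication genes was taken as the M phase mean minus the S phase mean on an array (log2). It was 0.47, 0.22, 0.37 and 0.31 on Atxn1L -/- replicates 1 to 4, against 0.51, 0.22, 0.30 and 0.32 on their wild types. It was 0.47, 0.39 and 0.56 on Atxn1-/- replicates 1 to 3, against 0.45, 0.42 and 0.56 on their wild types. A knockout and the wild type of the same replicate number differed by 0.0023 to 0.062 in the Atxn1L set and by 0.0085 to 0.026 in the Atxn1 set. Arrays of different number differed by 0.0055 to 0.296 and by 0.049 to 0.169. The nearest wild type had the same number for 2 of 4 Atxn1L -/- arrays and for 3 of 3 Atxn1-/- arrays. The knockout minus the wild type of the same number was above 0 for 4 of 4 numbers in the Atxn1L set, at 0.46, 0.06, 0.06 and 0.02 in the S phase mean and 0.42, 0.05, 0.12 and 0.0039 in the M phase mean, and for 1 of 3 numbers in the Atxn1 set in each mean. This was noticed after the values were seen and was not tested, and neither the labels nor the design text, which speaks of pairs, say that a number marks a pair, a litter, a day or a batch.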
